A study of Canis lupus familiaris with 26 samples.

Results

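Transcript levels of 5 genes of the fibrillar collagen matrix were followed in adenoma-associated stroma (AAS) and in normal stroma of canine simple mammary adenomas. These genes are COL1A1 (ENSCAFG00000017018) and COL1A2 (ENSCAFG00000002069), which encode the chains of type I collagen, COL14A1 (ENSCAFG00000000934), COL28A1 (ENSCAFG00000029367) and AEBP1 (ENSCAFG00000002917). They were chosen by name from 18466 measured genes, with their difference between AAS and normal stroma already in view, and their identifiers were found by symbol. COL28A1 is not a fibril-associated collagen in the strict sense and AEBP1 encodes no collagen, so the group is described below gene by gene. A filter on low counts kept 4 of the 5 genes among 4544 tested genes and removed COL28A1.

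The stroma came from spontaneous tumours of 13 female dogs of various breeds, 6 to 13 years old, whose archived blocks were 4 to 29 months old. From each formalin-fixed, paraffin-embedded (FFPE) tumour, the stroma within the adenoma (AAS, which the labels call cancer-associated stroma) and the stroma next to unaltered mammary gland of the same dog were cut out by laser-capture microdissection and sequenced as a pair. No treatment was given, and normal stroma here is tissue of a tumour-bearing gland rather than of a healthy dog. Pair 14 was left out of all comparisons except where named, because its normal stroma library held 83727 counts. The other 12 pairs had 759119 to 1602797 counts in normal stroma (median 969706.5) and 419770 to 1614120 in AAS (median 1060710). A total under 650000 counts occurred in the AAS libraries of pairs 7, 8, 10 and 15, and a single gene took up 84.9% of the counts of the AAS library of pair 7. Levels are given as normalised CPM, that is counts scaled to a common library size, and a count of 3 corresponds to 1.53 to 6.37 CPM in normal stroma and to 1.53 to 28.0 CPM in AAS.

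Type I collagen is the main fibre-forming protein of connective tissue and is made largely by fibroblasts. Its chains, mostly in a heterotrimer of COL1A1 and COL1A2 products, assemble into procollagen in the endoplasmic reticulum, are trimmed outside the cell and pack into fibrils that are then cross-linked. Fibril-associated collagens such as type XIV lie on the fibril surface and, with small proteoglycans, influence how fibrils space and grow. In the mammary gland, such fibrils form the dense stroma around ducts and lobules.

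COL1A1 ranged in normal stroma from 443 CPM in pair 10 over a median of 2215 to 13889 in pair 6, and in AAS from 140 in pair 7 over a median of 1146 to 3990 in pair 13. The groups overlapped widely: only 3 AAS samples lay below the lowest normal stroma sample, and 3 normal stroma samples lay above the highest AAS sample. COL1A1 was lower in AAS in 10 of 12 pairs, and the spread between dogs was large, with a mean of 3781 ± 4129 CPM in normal stroma and 1579 ± 1453 CPM in AAS (SD, n = 12 each). The exceptions were pair 11, where CPM went from 1461 in normal stroma to 3719 in AAS, and pair 13, with 1985 and 3990. The widest gap was that of pair 8, where normal stroma had 10152 CPM and AAS 411. Between dogs, the normal stroma samples spanned a 31.3-fold range of COL1A1.

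COL1A2, the partner chain, ranged from 156 CPM in pair 7 over a median of 593 to 2072 in pair 6 in normal stroma, and from 49.0 in pair 10 over a median of 233 to 731 in pair 6 in AAS. It was lower in AAS in all 12 pairs, and 5 AAS samples lay below every normal stroma sample. The differences were nevertheless unequal. In pair 11 the levels were close, with 489 CPM in normal stroma and 476 in AAS, whereas in pair 8 they were 1615 and 114. The group means were 747 ± 562 CPM and 286 ± 217 CPM (SD, n = 12 each). Pair 6 was thus highest for COL1A2 in both stromas, and the same normal stroma sample was also highest for COL1A1.

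COL14A1 encodes the chain of type XIV collagen, a fibril-associated collagen with interrupted triple helices. Its level in normal stroma ran from 11.6 CPM in pair 7 over a median of 121 to 187 in pair 4, and in AAS from 0 in pair 10 over a median of 27.8 to 177 in pair 6. AAS was lower in 11 of 12 pairs, and 2 AAS samples lay below the lowest normal stroma sample. These were the shallow libraries of pairs 7 and 10, with 1 and 0 counts, and the lowest normal stroma sample had 7 counts. Pair 6 was the exception, with 66.7 CPM in normal stroma and 177 in AAS. The normal stroma samples of pairs 6 and 8, which had the highest levels of both type I chains, had 66.7 and 75.9 CPM of COL14A1, below its median. Means were 105 ± 55.9 CPM in normal stroma and 51.7 ± 52.8 CPM in AAS (SD, n = 12 each).

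COL28A1 encodes type XXVIII collagen, a collagen with von Willebrand factor type A domains that is known mainly from peripheral nerve. It was close to the limit of detection. In normal stroma the level was 0 in pairs 4 and 15, the median was 23.7 CPM and the highest value was 54.7 in pair 9. In AAS the level was 0 in pairs 7, 10, 11 and 15, the median was 1.51 CPM and the highest value was 22.0 in pair 12. At most 3 counts were behind the value in 8 of the 12 AAS samples, so that the size of the difference is imprecise in most pairs. COL28A1 was lower in AAS in 10 pairs, was 0 in both stromas of pair 15, and in pair 4 had 0 counts in normal stroma and 10 in AAS (9.0 CPM). All 12 AAS samples lay below the median of normal stroma. In a RefSeq annotation of another dog assembly, COL28A1 overlaps a long non-coding RNA gene, and whether the counting used strand is not given in the sources used here.

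AEBP1 encodes aortic carboxypeptidase-like protein, a secreted protein that binds fibrillar collagen, and loss of the human gene causes a form of Ehlers-Danlos syndrome. Of the 5 genes, it was the one whose groups overlapped least. In normal stroma it ranged from 63.2 CPM in pair 7 over a median of 161 to 318 in pair 3, and in AAS from 3.50 in pair 10 over a median of 53.4 to 139 in pair 9. AAS samples fell below the lowest normal stroma sample in 8 of 12 cases, and 9 normal stroma samples lay above the highest AAS sample. AEBP1 was lower in AAS in 11 of 12 pairs. In the remaining pair, pair 9, normal stroma had 125 CPM and AAS 139, the smallest gap of all. Group means were 191 ± 90.1 CPM in normal stroma and 57.6 ± 44.7 CPM in AAS (SD, n = 12 each).

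**Figure D1:**
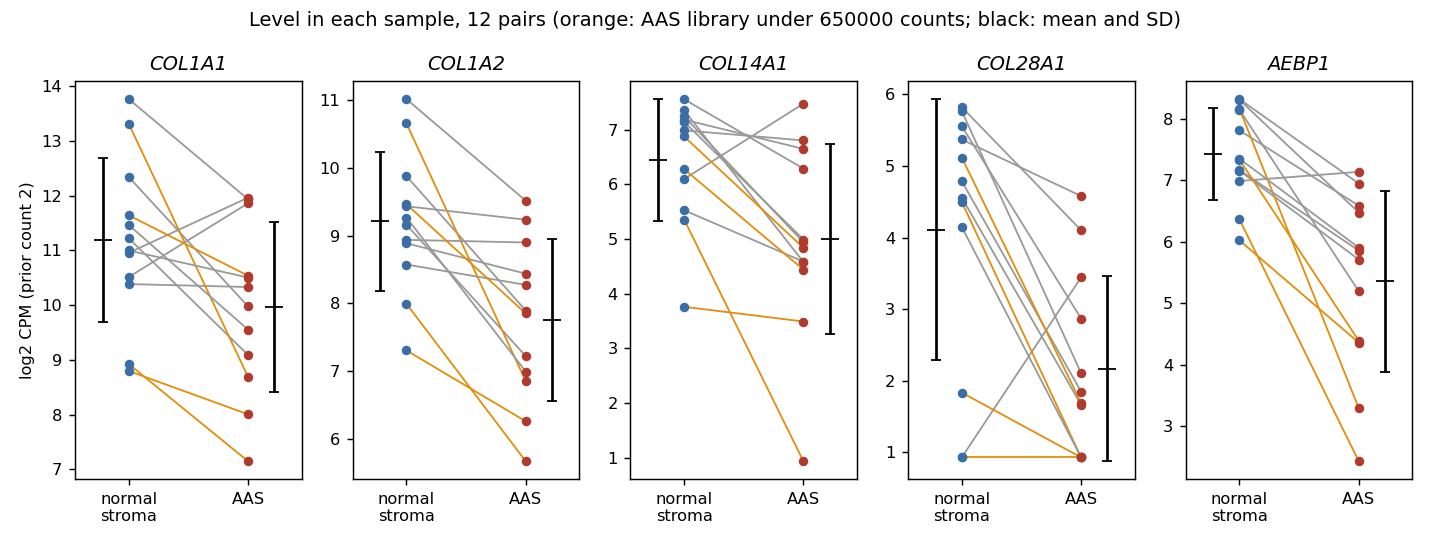
Log2 CPM (prior count 2) of each gene in normal stroma (blue) and AAS (red), with lines joining the samples of a dog (12 pairs), orange lines for the pairs whose AAS library held under 650000 counts, and black bars for mean and SD. All 12 lines slope down for COL1A2, and 10 do for COL1A1, with pairs 11 and 13 sloping up.

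The fitted log2 fold changes of AAS over normal stroma describe the same values. They were -1.26 ± 0.50 for COL1A1, -1.36 ± 0.38 for COL1A2, -0.96 ± 0.45 for COL14A1 and -1.67 ± 0.37 for AEBP1 (estimate ± standard error, edgeR, 12 pairs). A gene was called at an adjusted p-value below 0.05 if its log2 fold change also went beyond 1 up or down. Only AEBP1 of the 4 tested genes was called, where 1.80% of all tested genes were called and 1.19% were called as lower in AAS. With the pair number as a block, which compares the stromas within each dog, the values were -1.20 ± 0.37, -1.44 ± 0.27, -1.44 ± 0.39 and -1.97 ± 0.34 in the same order. COL1A2, COL14A1 and AEBP1 were then called and COL1A1 was not, beside 2.53% of all tested genes and 1.89% called as lower. Because the genes were chosen on this contrast, nothing is read from these counts. COL28A1 was fitted under a looser filter, a mean count of 5 or more, which kept 7763 genes, of which 1.15% were called as lower. Its log2 fold change was -2.28 ± 0.74, not called, and -3.04 ± 0.83 with the block, called. No fit without the samples at 0 was made. Over all tested genes the median log2 fold change was 0.01.

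Within pairs, the median log2 difference of AAS from normal stroma was -1.44 for COL1A1, -1.56 for COL1A2, -1.56 for COL14A1, -2.79 for COL28A1 and -1.55 for AEBP1. COL1A1, COL1A2, COL14A1 and AEBP1 thus had similar medians, while their ranges over the dogs differed. COL1A1 ran from -4.62 in pair 8 to 1.35 in pair 11, and AEBP1 from -4.87 in pair 8 to 0.15 in pair 9. As these are bulk samples, fewer cells of a type and less RNA per cell cannot be told apart.

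The shallow AAS libraries moved with part of this. In the 4 pairs with such a library the median difference was -1.97 for COL1A2 and -3.44 for AEBP1, against -0.98 and -1.41 in the other 8 pairs. For COL1A1 the medians were -1.44 and -1.16, and for COL14A1 -1.94 and -1.11. COL28A1 had -2.17 and -2.79, but its AAS counts in the 4 shallow pairs were 0 or 1. Its normal stroma had 1 count in pair 7 and 0 in pair 15, where little or no fall could show. Without these 4 pairs the fitted log2 fold changes were -0.89 ± 0.48 for COL1A1, -1.06 ± 0.36 for COL1A2, -0.83 ± 0.40 for COL14A1, -2.16 ± 0.72 for COL28A1 and -1.40 ± 0.29 for AEBP1, and AEBP1 was again the gene called without the block. With the block in these 8 pairs, COL1A2 (-1.08 ± 0.26) and AEBP1 (-1.44 ± 0.26) were called and COL14A1 (-1.13 ± 0.40) and COL28A1 (-2.62 ± 0.82) were not. Of 5288 genes tested in these 8 pairs, 78 were called without the block and 85 with it. COL28A1 was again fitted under the looser filter, which kept 8305 genes.

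**Figure D2:**
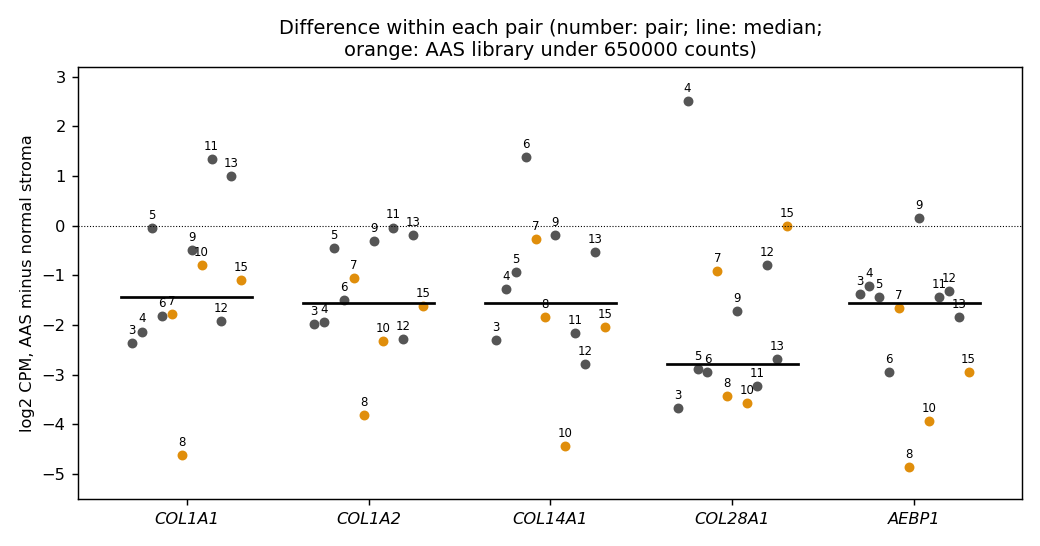
Difference in log2 CPM of AAS from normal stroma in each of 12 pairs (numbered points), with the median as a line and orange points for pairs whose AAS library held under 650000 counts. COL1A2 lies below 0 in all 12 pairs, and the orange points of pairs 8 and 10 are the lowest for AEBP1.

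Pair 14 did not enter these values, and its normal stroma library was very small. On a scale shared with the other 12 pairs, COL1A1 had 428 CPM in normal stroma (58 counts) and 628 in AAS. COL1A2 had 258 CPM (35 counts) and 157, and AEBP1 had 177 CPM (24 counts) and 78.1. COL28A1 had 44.3 CPM from 6 counts in normal stroma and 0 in AAS. COL14A1 had 111 CPM from 15 counts in normal stroma and 273 in AAS, above all of the other 24 samples. COL1A1 and COL14A1 were thus higher in AAS in this pair, and COL1A2, COL28A1 and AEBP1 were lower. With pair 14 added and no block, the log2 fold change of COL14A1 was -0.58 ± 0.45. With the block it was -1.22 ± 0.39, and COL14A1 was no longer called.

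Balance between the type I chains was followed as the ratio of COL1A1 to COL1A2 counts within a sample. This ratio can be compared between samples, but it is no ratio of molecules, as the counts are not divided by transcript length. It ranged from 1.75 in pair 10 over a median of 4.35 to 6.70 in pair 6 in normal stroma, and from 1.88 in pair 7 over a median of 4.96 to 7.81 in pair 11 in AAS. The ratio was higher in AAS in 6 pairs and lower in 6, and the groups overlapped almost completely. The widest rise was in pair 10, where COL1A1 made up 63.6% of the counts of both chains in normal stroma (95% CI 59.7 to 67.5) and 83.9% in AAS (74.5 to 90.9, from 73 and 14 counts), with both chains lower in AAS. In pair 11, COL1A1 made up 74.9% of the counts of both chains in normal stroma (73.5 to 76.3) and 88.7% in AAS (87.7 to 89.5). In pair 13 the shares were 74.2% (72.8 to 75.5) and 86.9% (86.1 to 87.7). The widest fall was in pair 8, from 86.3% in normal stroma (85.7 to 86.8) to 78.3% in AAS (74.0 to 82.3). These exact binomial intervals cover counting error only. Unlike pair 10, pairs 11 and 13 are the dogs in which COL1A1 was higher in AAS, while COL1A2 was slightly lower there.

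Within each group, levels of the genes were correlated over the 12 samples, which uses no difference between the groups. Of 20 relations, 8 passed an adjusted p of 0.05 for Pearson's r and 8 for Spearman's rho (permutation tests, two-sided). The chains of type I collagen were the closest. In normal stroma COL1A1 and COL1A2 had r = 0.964 and rho = 0.916 (adjusted permutation p = 0.0002 and 0.0012, n = 12), and in AAS r = 0.953 and rho = 0.930 (adjusted permutation p = 0.0002 and 0.0008, n = 12). Without the 2 samples farthest from the median of COL1A1, r was 0.953 and 0.954. In the 8 pairs with deeper AAS libraries r was 0.934 in normal stroma and 0.950 in AAS (adjusted permutation p = 0.0385 and 0.0140), and no other relation passed there. By rank only that in AAS passed (rho 0.929, adjusted permutation p = 0.0442), while normal stroma had rho 0.738 (adjusted permutation p = 0.311). Without the 2 farthest of these 8 samples r was 0.408 in normal stroma, where the relation thus rests on those samples, and 0.904 in AAS. For comparison, the median r of COL1A1 with all other tested genes was -0.05 in normal stroma and 0.13 in AAS. The 95th percentile of these r was 0.495 in normal stroma and 0.619 in AAS. It was 0.520 and 0.637 for COL1A2, 0.542 and 0.684 for COL14A1, and 0.507 and 0.654 for AEBP1.

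**Figure D3:**
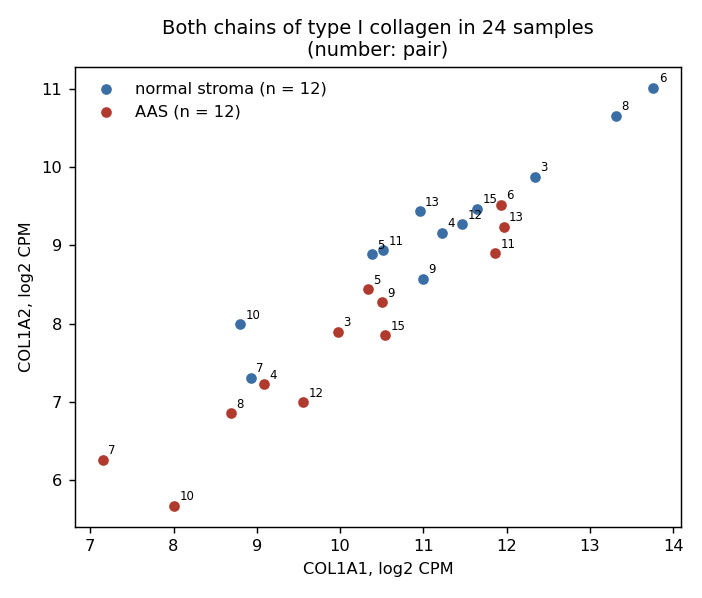
Log2 CPM of COL1A1 against COL1A2 in 12 normal stroma (blue) and 12 AAS samples (red), numbered by pair. Both groups lie along a line (r = 0.964 and 0.953), with the normal stroma of pairs 6 and 8 at the upper end and the AAS of pairs 7 and 10 at the lower end.

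AEBP1 went with the type I chains in normal stroma. There r was 0.877 with COL1A2 (rho 0.846, adjusted permutation p = 0.00093 and 0.00545, n = 12) and 0.822 with COL1A1 (rho 0.685, adjusted permutation p = 0.00504 and 0.0476). Without the 2 farthest samples r was 0.831 and 0.772. Over the 8 deeper pairs r was 0.707 and 0.567, and neither passed. In AAS, r of AEBP1 was 0.606 with COL1A2 and 0.532 with COL1A1, and neither passed (adjusted permutation p = 0.0731 and 0.138). Whether these correlations differ between normal stroma and AAS was not tested.

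COL14A1 went with the type I chains in AAS. Here r was 0.802 with COL1A2 (rho 0.839, adjusted permutation p = 0.00504 and 0.00545, n = 12) and 0.702 with COL1A1 (rho 0.790, adjusted permutation p = 0.0285 and 0.0136). Both rested partly on the extreme samples: without the 2 farthest, r was 0.587 (permutation p = 0.0776) and 0.501 (permutation p = 0.138). Over the 8 deeper pairs r was 0.497 and 0.409, and neither passed. With pair 14 added to the 12 pairs, r was 0.655 and 0.559. In normal stroma r was 0.488 and 0.481, and neither passed (adjusted permutation p = 0.163 for both). COL14A1 and AEBP1 had r = 0.727 in AAS (rho 0.706, adjusted permutation p = 0.0235 and 0.0430), which was 0.066 in the 8 deeper pairs. In normal stroma r was 0.655 (rho 0.552, adjusted permutation p = 0.0477 and 0.147). That relation rests on the samples of low COL14A1, since r was 0.052 without the 2 farthest samples and 0.403 without pair 7.

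COL28A1 passed with Pearson's r for none of the other genes. Its closest relation was with AEBP1 in AAS, with r = 0.627 and rho = 0.676 (adjusted permutation p = 0.0637 and 0.0476, n = 12). Ages of the dog and of the block, which played no part in the choice of genes, were related to none of the genes after adjustment (20 relations, 4 of them with an unadjusted permutation p under 0.05 for r). The lowest adjusted p was 0.130, shared by 4 relations in normal stroma. Among them, COL1A1 was lower in older dogs with r = -0.657 and rho = -0.645 (permutation p = 0.0194 and 0.0274, adjusted 0.130 and 0.549, n = 12). A dog's AAS level was not shown to follow its normal stroma level for any of the 5 genes. Pearson's r over the 12 pairs ran from 0.328 for COL28A1 to 0.527 for COL14A1 (adjusted permutation p = 0.307 and 0.230), and no r had an unadjusted p under 0.05. By rank COL28A1, on few counts, was highest of the 5 (rho = 0.619, permutation p = 0.0356, adjusted 0.178).

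Library size moved with AEBP1 and COL14A1 in AAS. Over the 12 AAS samples AEBP1 had r = 0.902 and rho = 0.846 with the log2 total count (adjusted permutation p = 0.0012 and 0.0142, 15 relations), and 0.867 without the 2 farthest samples. COL14A1 had r = 0.749 and rho = 0.713 (adjusted permutation p = 0.0134 and 0.0561), and 0.683 without the 2 farthest. The median r of all tested genes was 0.24. COL1A2 and COL1A1 had r = 0.656 and 0.532 over the 12 AAS samples, and neither passed (adjusted permutation p = 0.0847 and 0.144). Within the 8 AAS libraries of 650000 counts or more, r was 0.521 for AEBP1, 0.494 for COL14A1, 0.151 for COL1A2 and -0.07 for COL1A1. The pair difference of AEBP1 followed the size of the AAS library too, with r = 0.766 and rho = 0.734 (adjusted permutation p = 0.0134 and 0.0561). That of COL1A2 had r = 0.584 and did not pass (adjusted permutation p = 0.138). In normal stroma none of the 5 genes passed, and AEBP1 had r = 0.238. The part of library size in the differences described above was not tested beyond the values without the 4 shallow pairs.

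**Figure D4:**
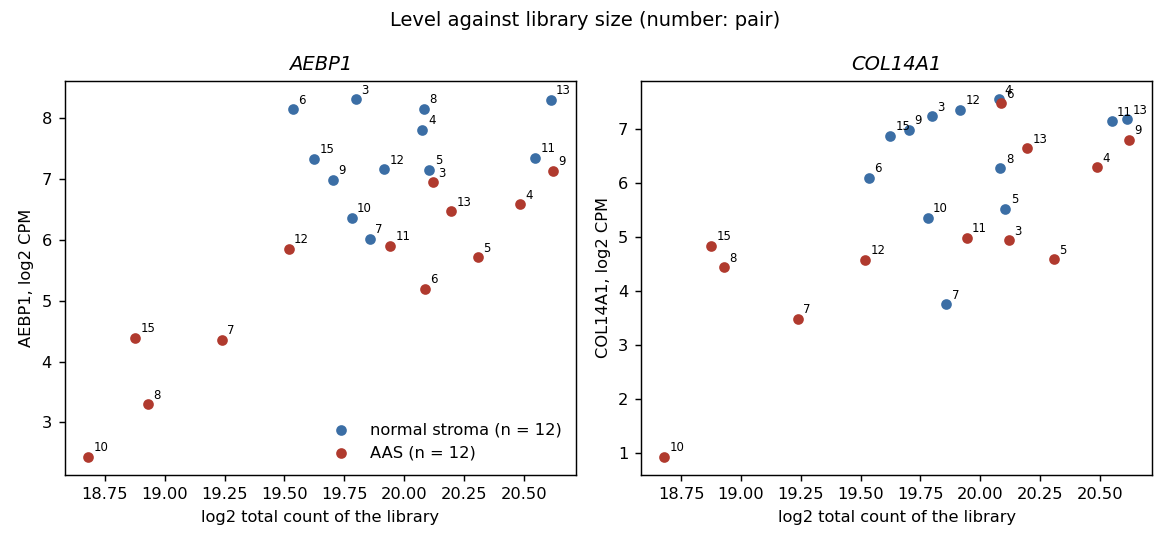
Log2 CPM of AEBP1 (left) and COL14A1 (right) against the log2 total count of the library, for 12 normal stroma (blue) and 12 AAS samples (red) numbered by pair. The AAS libraries of pairs 7, 8, 10 and 15 lie at the lower left for AEBP1 (r = 0.902 in AAS), while normal stroma shows no such slope (r = 0.238).

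The genes whose levels were most like those of the 5 genes were sought among 1852 tested genes with a symbol, as the Pearson correlation of log2 CPM over 24 samples after the group means were removed. COL1A1 was most like COL3A1, the chain of type III collagen (r = 0.933), followed by the RNA helicase DDX17 (0.755) and the type VI collagen chain COL6A3 (0.706). COL1A2 was most like COL3A1 (0.899), DDX17 (0.802) and the intermediate filament gene VIM (0.752). COL14A1 had DDX17 (0.813), the matrix glycoprotein fibulin-1, FBLN1 (0.812), and the proteoglycan decorin, DCN (0.808). AEBP1 had DCN (0.805), FBLN1 (0.784) and IGFBP7 (0.765). COL28A1 had ZNF318 (0.755), LCP2 (0.744) and SUN1 (0.722), on few counts. The samples share libraries and depth, so these values are descriptions.

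Other genes of the collagen pathway were taken from lists set by name. Identifiers could be paired with a symbol for 3302 of 18466 genes, more often for genes that changed. Among tested genes with a symbol, 3.77% were called without the block and 5.44% with it. The lists below are read against these shares. Without the block, 4 of 13 fibril-binding and 2 of 10 receptor and degradation genes were called. So were 1 of 9 network and other collagens and 1 of 5 TGF-beta genes, and none in the other pathway lists. With the block these were 6, 4, 1 and 1. They lie above the shares, but the lists were chosen with earlier results known, so nothing is read from them.

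Of 9 other fibrillar collagens, 5 had an identifier and 4 were tested. None was called by edgeR or DESeq2 with or without the block, and 1, COL3A1, had an unadjusted p under 0.05. The median log2 fold change of the list was -0.69. COL3A1, which co-assembles with type I collagen, averaged 1027 ± 990 CPM in normal stroma and 499 ± 493 CPM in AAS (SD, n = 12 each), at a log2 fold change of -1.03 ± 0.48 (edgeR adjusted p = 0.430). AAS had the lower level in 9 of 12 pairs. COL5A2, a chain of the type V collagen that starts fibrils, had -0.35 ± 0.26 (edgeR adjusted p = 0.761). Among 9 other fibril-associated collagens only COL12A1, the chain of type XII collagen, was tested. Its log2 fold change was 0.82 ± 0.34 (edgeR adjusted p = 0.321, not called by DESeq2), with AAS higher in 9 of 12 pairs, whereas COL14A1 was lower in 11.

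The collagens that form networks, beaded filaments or other structures had 9 of 22 genes tested, with a median log2 fold change of 0.49. COL4A2, a chain of the type IV collagen of basement membranes, rose by 1.52 ± 0.40 (edgeR adjusted p = 0.0352, AAS higher in 10 of 12 pairs). With the block it was not called (1.49 ± 0.47, edgeR adjusted p = 0.117), nor with the share of long RNA fragments in each sample (DV200) as a covariate (1.56 ± 0.43, edgeR adjusted p = 0.0590). For its partner COL4A1 the calls went the other way, with 1.95 ± 0.59 (edgeR adjusted p = 0.0887) and 2.62 ± 0.69 with the block (adjusted p = 0.0384). COL4A1 and COL4A2 overlap each other in the RefSeq annotation of another assembly. Whether their transcripts share sequence, and so reads, was not tested. The type VI chains COL6A1 and COL6A3 had log2 fold changes of -0.76 ± 0.31 and -0.72 ± 0.32 (edgeR adjusted p = 0.313 and 0.408). COL15A1, picked after its value was seen, had 1.43 ± 0.45 (edgeR adjusted p = 0.108), with AAS higher in 10 of 12 pairs. DESeq2 called COL15A1 both with and without the block.

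**Figure D5:**
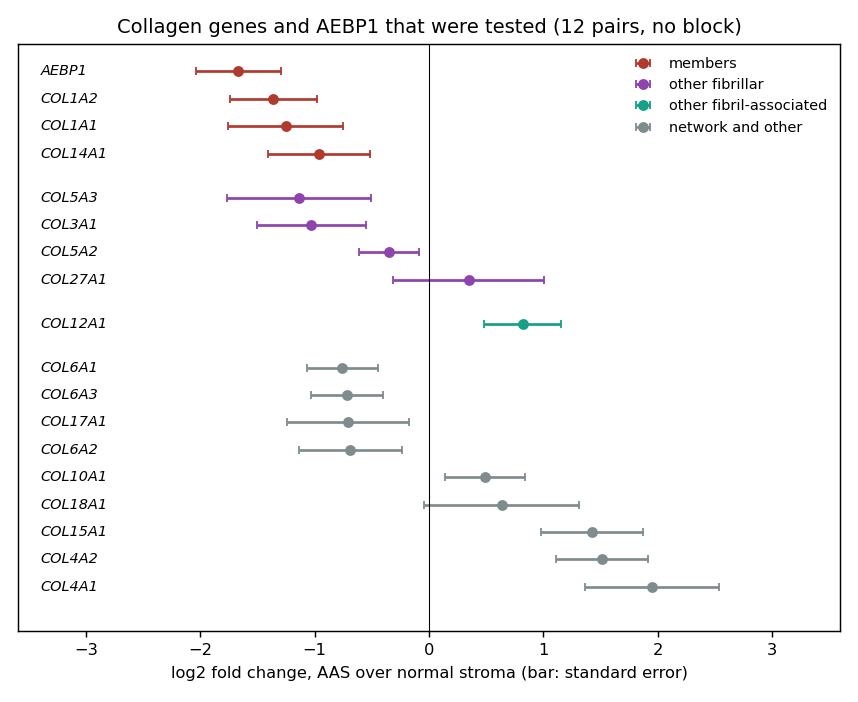
Log2 fold change of AAS over normal stroma (points, with standard error as bars; edgeR, 12 pairs, no block) for the tested genes among the 5 described here (red) and 3 lists of other collagens. The tested type I, III, V and VI chains lie below 0, COL12A1 and the type IV chains lie above, and of the genes shown only AEBP1 and COL4A2 were called.

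Genes of collagen synthesis and folding had 7 of 25 tested, at a median of 0.65 with 5 of 7 above 0. None was called by edgeR with or without the block, and 2 had an unadjusted p under 0.05, namely LARP6 and CREB3L1. The prolyl 4-hydroxylase subunits P4HA2 and P4HA1, which stabilise the triple helix, had log2 fold changes of 0.18 ± 0.17 and 0.65 ± 0.44 (edgeR adjusted p = 0.840 and 0.700). LARP6 binds type I collagen mRNAs and CREB3L1 is a transcription factor that acts on COL1A1, and both were picked after their values were seen. They had -1.28 ± 0.49 and -1.67 ± 0.63 (edgeR adjusted p = 0.255 and 0.249), and DESeq2 called both with the block but not without it. Of 13 genes of procollagen processing and cross-linking, only PCOLCE, an enhancer of procollagen cleavage, was tested (-0.20 ± 0.69, edgeR adjusted p = 0.979).

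Proteins that bind fibrils had 13 of 22 genes tested, of which 3 fell and 1 rose, at a median log2 fold change of 0.00. DCN fell by 1.96 ± 0.45 on the log2 scale (edgeR adjusted p = 0.00996), and tenascin-X, TNXB, fell by 2.64 ± 0.43 (edgeR adjusted p = 0.000174). FBLN1 fell by 1.71 ± 0.37 (edgeR adjusted p = 0.00508). All 3 were lower in AAS in 12 of 12 pairs, and TNXB overlaps CYP21A2 in the other assembly. Biglycan, BGN, a proteoglycan closely related to decorin, rose by 2.96 ± 0.49 (edgeR adjusted p = 0.000223) and was higher in AAS in 12 of 12 pairs. With the block, PRELP (-1.38 ± 0.35, adjusted p = 0.0294) and THBS2 (-2.21 ± 0.50, adjusted p = 0.0136) were called as well.

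Collagen receptors and degradation genes had 10 of 19 tested, at a median of -1.05 with 9 of 10 below 0. The collagen-binding integrin ITGA11 fell by 2.33 ± 0.43 (edgeR adjusted p = 0.000653), and the metalloproteinase inhibitor TIMP3, which lies within SYN3 in the other assembly, fell by 1.64 ± 0.27 (edgeR adjusted p = 0.000223), each lower in 12 of 12 pairs. With the block, the collagen receptor kinase DDR2 (-1.31 ± 0.35, adjusted p = 0.0427) and the gelatinase MMP2 (-1.75 ± 0.35, adjusted p = 0.00407) were also called. Of 15 genes around TGF-beta, a main inducer of fibrillar collagen genes, 5 were tested, at a median of 0.31. LTBP2, a matrix protein of the latent TGF-beta binding family that overlaps ISCA2 in the other assembly, rose by 3.17 ± 0.56 (edgeR adjusted p = 0.000456), while TGFBR3 had -1.05 ± 0.38 and CCN2 0.31 ± 0.31 (edgeR adjusted p = 0.222 and 0.860).

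Markers of other cells were summed in each sample. All 7 tested fibroblast markers had a log2 fold change below 0, and VIM (-1.13 ± 0.24, edgeR adjusted p = 0.00419) and PI16 (-2.36 ± 0.46, edgeR adjusted p = 0.00152) were called. Their sum ran from 1503 to 4475 CPM in normal stroma and from 392 to 2257 in AAS. In 12 of 12 pairs the sum was lower in AAS, and VIM was its largest part (mean 1784 CPM in normal stroma and 811 in AAS). PDGFRA (-0.44 ± 0.31, edgeR adjusted p = 0.737) was lower in AAS in 8 of 12 pairs. THY1 (-0.39 ± 0.24, edgeR adjusted p = 0.643) was lower in 7. S100A4 (-1.32 ± 0.66, edgeR adjusted p = 0.499) was lower in 8. CD34 (-2.24 ± 0.70, edgeR adjusted p = 0.109) was lower in 11 pairs and was at 0 in 5 AAS samples. DESeq2 called CD34 both with and without the block. FBN1, the other abundant marker of this list, had -0.31 ± 0.42 (edgeR adjusted p = 0.914). None of the markers of other cell types was called by edgeR or DESeq2, and 1 epithelial (CDH1) and 1 smooth muscle marker (ACTA2) had an unadjusted p under 0.05. The filter on low counts had removed the keratins KRT15 and KRT19. KRT15 averaged 4.83 ± 5.69 CPM in normal stroma and 46.6 ± 59.1 CPM in AAS (SD, n = 12 each; higher in AAS in 9 pairs, lower in 2), and KRT19 averaged 6.77 ± 8.62 and 14.1 ± 12.2 CPM (higher in 8 pairs, lower in 4). The summed level of 4 of 14 epithelial markers ran from 99.4 to 238 CPM in normal stroma and from 95.5 to 441 in AAS, higher in AAS in 9 of 12 pairs. For 2 of 7 smooth muscle and myoepithelial markers, ACTA2 and MYLK, the sums were 33.2 to 182 and 37.3 to 376 CPM (higher in 10 pairs). For 5 of 12 leukocyte markers they were 386 to 816 and 388 to 1232 CPM (higher in 9), and for 2 of 9 endothelial markers 9.22 to 89.2 and 0 to 63.4 CPM (higher in 5). Of 7 adipocyte markers only LEP had an identifier, and it was at 0 in 10 normal stroma and 9 AAS samples. No marker with an identifier was at 0 in every sample of a group. The part of these cell types in the levels of the collagen genes was not tested.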

How the data were processed

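Laser-captured AAS and normal stroma of 13 canine simple mammary adenomas (26 libraries) were sequenced from small amounts of FFPE RNA with a stranded total RNA kit for low input. The authors quantified reads with kallisto 0.44.0 on CanFam3.1 transcripts, summed them per gene and deposited estimated counts, without normalization, for 18466 genes. The deposited estimated counts were whole numbers (0 values with decimals) and no pair of samples was identical. Low amounts of fragmented RNA raise the number of zeros, and a gene that takes up much of a library lowers the precision of the others.

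Counts were filtered (filterByExpr), TMM-normalized and put through edgeR's quasi-likelihood test (edgeR 4.0.16, R 4.3.3), with Benjamini-Hochberg adjustment over all tested genes. Following the methods, pair 14 was left out. The methods give no design formula, and no pair term was used in the main comparison. The pair number joins the samples of a dog and was added as a block in an alternative. Deviations of same-dog samples from the group means correlated at 0.125 on average (range -0.03 to 0.396, over 0.1 in 6 of 12 pairs), and those of different dogs at -0.01. The spread between samples beyond counting error was 66.7% of a typical mean, and 61.5% with the block. Standard errors were derived from the F statistic. Log2 CPM carries a prior count of 2. Correlations used permutation tests with 100000 resamples (Python 3.11.15, scipy 1.17.1 for ranks and exact intervals). DESeq2 1.42.0 served as an alternative. Ages came from each sample's labels. DV200, a covariate in an alternative, is listed by case in the study's supplement, and cases were matched to pairs by breed and both ages, which name each dog uniquely. The scripts were tested on simulated data.

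The 5 genes and the gene lists were chosen with earlier results of these data known. Named are the 5 genes, each listed gene called with or without the block, the 2 most abundant tested genes per list, and the 3 genes most like each of the 5. Further genes, among them COL15A1, LARP6, CREB3L1, PDGFRA and THY1, were named after their values were seen. Symbols came from the readable parts of the study's supplementary gene tables (1766 and 1864 identifiers). The fold changes and p-values in those tables were not used. No genome, sequence or coordinates of this build were used here. The labels and the methods differ on the amount of RNA per library.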

Additional observations from a re-analysis of the deposited data

Results flagged for a closer look

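COL14A1 in the AAS sample of pair 14, which entered no comparison, had 273.3 CPM on the scale shared by all 13 pairs, from 273 counts. The highest of the 12 normal stroma samples used had 193 CPM, and the highest of the 12 AAS samples used had 182 CPM. The normal stroma of the same dog had 111 CPM from 15 counts in a library of 83727.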

How the results depend on the processing

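The fitted log2 fold changes of the 5 genes stayed below 0 in the main comparison and all alternatives that were run: -1.29 to -0.83 for COL1A1, -1.44 to -1.06 for COL1A2, -1.44 to -0.58 for COL14A1, -3.32 to -2.16 for COL28A1 and -1.99 to -1.40 for AEBP1. AEBP1 was called in 14 of 14 fits, COL1A2 in 9, COL14A1 in 2, COL1A1 in 1, and COL28A1 in 5 of 13. The 1 call of COL1A1 came without a filter on low counts. Because the 5 genes were chosen on this contrast, nothing is read from their calls. Of 4544 tested genes, 82 were called in the main comparison. Of the same 4544, the pair block called 115, with 77 called both ways, DESeq2 134, and DESeq2 with the block 227. The mean filter of 5 counts called 153 of 7763 genes, and no filter on low counts 1690 of 18441. The pathway lists outside the 5 genes, cell type markers left aside, held 8 calls, 12 with the block, 20 with DESeq2 and the block, and 16 without a filter. The cause was not tested. Of the relations between genes, 8 passed, and 2 without the 4 shallow pairs, a setting that leaves 8 samples a group. The settings without the shallow pairs, with 13 pairs and the block, and the relations with library size were chosen after seeing the data. The shallow AAS libraries limit AEBP1, COL14A1 and COL28A1 most: AEBP1 rests there on 1 to 10 counts and COL28A1 on 0 or 1.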
